A study of Homo sapiens with 8 samples.

Results

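The genes described here are 28 genes of cholesterol synthesis and its regulation: the enzymes from acetoacetyl-CoA to cholesterol, the proteins that sense sterols, a few genes of sterol transport and lipid metabolism, and 3 targets of the liver X receptors (LXR). They were listed by symbol and role, with no threshold on a measured value, and all 28 were found among the 25435 symbols of the count table. All 28 were also among the 14898 genes that passed the filter on low counts. Their levels were followed in SET-2 cells, which grow as megakaryoblasts and derive from a leukemia that followed essential thrombocythemia, in a series whose title names the JAK2V617F allele as the driver. Every library came from this one line, grown with fetal calf serum, and no drug treatment is given.

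The ZRSR2 knockout group had 4 libraries and the non-targeting group had 4. Cells of the first group received a vector with 1 of 2 guide RNAs against ZRSR2, a splicing factor that recognises the end of minor introns, and the control cells 1 of 2 non-targeting guides. Each guide was used in experiment 1 and in experiment 2, which gave 2 libraries per genotype and experiment. The protocol gives RNA extraction at day 20 after transduction for biological replicate 1 and at day 25 for biological replicate 2. If the experiment numbers are those replicate numbers, experiment, day and batch cannot be told apart. Nothing in the labels says that guides within an experiment came from separate starting cultures, so p-values measure the spread between these libraries.

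Cholesterol is made from acetyl-CoA through mevalonate, farnesyl diphosphate, squalene and lanosterol. When sterols in the endoplasmic reticulum are low, SCAP carries the transcription factors SREBP1 and SREBP2 (genes SREBF1 and SREBF2) to the Golgi, where they are cleaved, and SREBP2 then switches on the enzymes of synthesis. INSIG proteins hold SCAP back when sterols are plentiful. LXR responds to oxidised sterols and switches on export genes such as ABCA1 and ABCG1, and MYLIP, a ligase that leads to breakdown of lipoprotein receptors. In blood cells these arms set membrane cholesterol, which is known to affect the signalling of growth factor receptors.

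Promoters are shown first for 5 genes whose levels are described below, since SREBP2 acts at the sterol regulatory element together with the factor NF-Y. RefSeq sequences (GRCh38.p14) were matched for 24 of the 28 genes, with 31 start sites, but not for ACAT2, FDFT1, SQLE or ABCG1, and the 250 bases before each start were searched on both strands. The searched letters were TCACNCCAC for the sterol regulatory element, CCAAT for the NF-Y box and, for the LXR element named DR4, a pair of AGGTCA copies in the same direction 4 bases apart. The sequences run 5′ to 3′ in the direction of the gene, end at the base before the start site, and carry every match in capitals.
SREBF2 at chr22:41832855-41833104, plus strand: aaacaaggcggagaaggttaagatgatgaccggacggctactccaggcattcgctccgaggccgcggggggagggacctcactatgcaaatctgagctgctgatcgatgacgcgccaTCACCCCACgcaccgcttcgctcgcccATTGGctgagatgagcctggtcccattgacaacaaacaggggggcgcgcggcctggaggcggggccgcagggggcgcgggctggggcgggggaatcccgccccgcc
INSIG1 at chr7:155297628-155297877, plus strand: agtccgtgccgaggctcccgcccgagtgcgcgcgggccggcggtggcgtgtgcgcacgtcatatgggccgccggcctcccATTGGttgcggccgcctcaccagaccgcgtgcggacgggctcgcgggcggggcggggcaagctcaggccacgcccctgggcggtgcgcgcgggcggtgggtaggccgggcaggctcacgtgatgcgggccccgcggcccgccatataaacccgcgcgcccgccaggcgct
MSMO1 at chr4:165327419-165327668, plus strand: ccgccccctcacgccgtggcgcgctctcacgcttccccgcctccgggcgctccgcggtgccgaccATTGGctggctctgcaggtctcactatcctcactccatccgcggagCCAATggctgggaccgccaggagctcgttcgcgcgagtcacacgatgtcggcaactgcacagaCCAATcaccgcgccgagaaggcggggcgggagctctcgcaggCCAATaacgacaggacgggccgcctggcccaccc
NSDHL at chrX:152830813-152831062, plus strand: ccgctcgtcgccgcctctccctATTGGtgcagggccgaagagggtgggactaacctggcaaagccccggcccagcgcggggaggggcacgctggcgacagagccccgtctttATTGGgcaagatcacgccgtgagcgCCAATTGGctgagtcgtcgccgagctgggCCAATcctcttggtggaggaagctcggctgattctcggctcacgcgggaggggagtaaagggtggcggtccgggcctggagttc
LSS at chr21:46228775-46229024, minus strand: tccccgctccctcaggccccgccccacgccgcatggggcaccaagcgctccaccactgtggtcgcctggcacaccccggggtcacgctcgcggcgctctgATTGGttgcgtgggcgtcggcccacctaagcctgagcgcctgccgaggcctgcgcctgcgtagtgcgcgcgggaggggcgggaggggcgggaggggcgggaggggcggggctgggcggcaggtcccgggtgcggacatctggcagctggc

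The SREBF2 promoter held the one match to the sterol regulatory element among the 31 windows, starting 133 bases before the start site, and a CCAAT 106 bases before it on the opposite strand. Of all 21609 windows of this length in the table, 0.884% held that element. CCAAT was found in 19 of the 31 windows, or 61.3%, and in 32.7% of all windows. By gene, it was found in 17 of the 24 members, beside 40.0% of all genes with a window. The windows of SC5D overlap and hold the same copy, which was counted in each. MSMO1 had 4 copies and NSDHL 5, of which 1 pair overlapped, while INSIG1 and LSS had 1 each. The exact letters of the LXR element were in 0 of the 31 windows and in 0.0046% of all windows. Elements that differ from the searched letters were not counted, and ABCG1 had no window. This 0 therefore does not show that the LXR targets lack such an element. A match is a description of letters in this window, and it says nothing of binding in these cells.

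Depth ran from 31106042 to 71521173 expected counts per library, and the deepest was control replicate 3, guide 1 of experiment 2. The lowest count of any of the 28 genes in any library was 74, so none was limited by undetected transcripts. Levels are given as CPM, counts per 1000000 counts of a library after TMM scaling, and are compared between libraries and not between genes. Megakaryoblast markers were present: ITGA2B, the platelet integrin chain, had 2085 to 2708 CPM and GATA1 241 to 306 CPM, while GP1BB had 0 counts. The T cell and B cell markers CD3E, CD3D and MS4A1 reached at most 0.183 CPM, and LYZ, which is also expressed in myeloid lines, had 206 to 267 CPM. Of the 8 markers of the line that were tested, 4 rose and 1 fell in experiment 2. Of the 10 markers of other cell types 6 were tested, 2 rose and 1 fell. In edgeR's test 29.6% of all tested genes rose past an adjusted p of 0.05 in experiment 2, and 28.6% fell. EPCAM, an epithelial marker, went from 5.36 ± 1.24 to 16.0 ± 4.46 CPM (SD, n = 4). PDGFRB, a fibroblast marker, went from 0.764 ± 0.160 to 3.14 ± 0.352 CPM (SD, n = 4). EPCAM and PDGFRB had no overlap between experiments, as 56.0% of all tested genes did, while CDH5, an endothelial marker, fell by 0.97 on the log2 scale. The other fibroblast marker, COL1A1, went from 0.319 ± 0.0524 to 0.259 ± 0.111 CPM (SD, n = 4). The monocyte marker CD14 went from 0.743 ± 0.197 to 0.558 ± 0.115 CPM (SD, n = 4). Libraries of COL1A1 and of CD14 overlapped between experiments. The summed level of these 10 markers, most of it LYZ, was 224 to 244 CPM in experiment 1 and 223 to 287 CPM in experiment 2, and MS4A1 had 0 counts. The summed level of the 9 markers of the line was 3123 to 3347 CPM and then 3271 to 4036 CPM. The part of these markers in the results below was not tested.

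ZRSR2 itself, measured first as a check of the labels, had 29.4 and 22.9 CPM in the guide 1 and guide 2 knockout libraries of experiment 1, and 28.3 and 18.7 CPM in those of experiment 2. The controls had 37.9 and 39.2 CPM in experiment 1 and 39.7 and 41.1 CPM in experiment 2. Every knockout library was below every control library. Means were 24.8 ± 4.99 CPM (SD, n = 4) and 39.5 ± 1.34 CPM (SD, n = 4), and the exact two-sided permutation test gave p = 0.0286, the smallest value that 70 arrangements allow. With libraries exchanged solely inside an experiment the exact permutation p was 0.0556, again the lowest possible, with 36 arrangements. In edgeR's test over all genes ZRSR2 was at a log2 fold change of −0.67 (SE 0.15); the adjusted p was 1.00, and 0.275 once the experiment was a block. Transcript remained at 62.9% of the control level, and this measure does not show how much protein was lost.

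No sterol gene passed the test between knockout and control. In edgeR's quasi-likelihood test 0 of the 28 genes passed an adjusted p of 0.05, as did 0% of all tested genes, and with the experiment as a block it was again 0 of 28, beside 0% of all genes. At an unadjusted p under 0.05 there were 0 of the 28 without the block, beside 89 of all 14898 genes, and 1, ABCG1, with it, beside 690 of all genes. DESeq2 called 0 of the 28 and 4 of all genes. None of the 28 had knockout libraries all above or all below the control libraries, which 0.678% of all genes did. With genotype alone, the 28 log2 fold changes ran from −0.43 to 0.10 with a median of −0.002, and the median over all genes was −0.003.

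The precision of this comparison rests on the experiment being in the model. With genotype alone the standard errors of the 28 log2 fold changes ran from 0.08 to 1.05, the highest being that of ABCG1, and with the block from 0.06 to 0.15. In the blocked fit the 95% intervals of all 28 genes lay within 2-fold either way, and those of 26 lay within 1.5-fold. The 2 others were the export genes ABCA1 and ABCG1. A change of 2-fold or more in either direction therefore lay outside the interval of each of these genes, while smaller changes could not be detected for all of them.

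**Figure D1:**
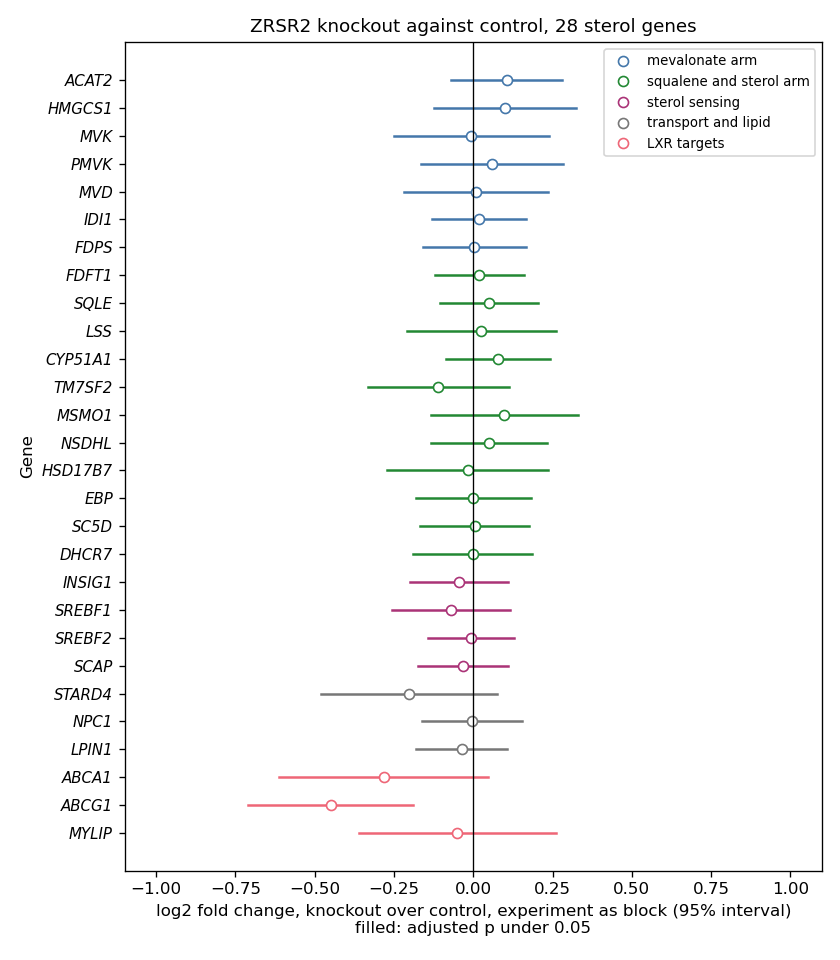
Knockout over control log2 fold changes of the 28 genes (points) with 95% intervals (lines) from the blocked fit, coloured by role. All points are open, since none passed the adjusted threshold, and the 3 LXR targets lie at the bottom, with ABCG1 at −0.45 the lowest of the 28.

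By role, values are given from the fit with genotype alone. The 7 genes of the mevalonate arm had a median log2 fold change of 0.02 in the knockout, with 5 higher and 2 lower. The 11 genes of the squalene and sterol arm had a median of 0.01, with 6 higher and 5 lower. The sensing genes INSIG1, SREBF1, SREBF2 and SCAP lay between −0.07 and −0.003. The 20 SREBP2 targets, which are both enzyme arms with INSIG1 and the sterol carrier STARD4, had a median of 0.006, with 11 higher and 9 lower. The 3 LXR targets had a median of −0.27 and all 3 were lower, at −0.43 for ABCG1, −0.27 for ABCA1 and −0.05 for MYLIP. Over all tested genes 51.3% were lower. No gene of either list passed the test, and with 3 genes the LXR median is the value of ABCA1 alone.

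In the fit with genotype alone, the 4 members of smallest unadjusted p were ABCA1, STARD4, TM7SF2 and HMGCS1. In the blocked fit they were ABCG1, ABCA1, STARD4 and ACAT2. ABCA1, which moves cholesterol out of the cell to lipid-poor apolipoprotein, had 6.29 and 4.85 CPM in the knockout libraries of experiment 1 against 8.19 and 7.20 CPM in the controls. In experiment 2 it had 6.67 and 9.19 CPM against 7.50 and 9.67 CPM. The groups were apart in experiment 1 and overlapped in experiment 2. With 2 libraries against 2, being apart in 1 experiment can often arise by chance, and its share over all genes was not counted. The log2 fold change was −0.27 (SE 0.21, adjusted p = 1.00 in edgeR's test), and with the block it was −0.28 (SE 0.15), also outside the threshold.

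STARD4, a soluble carrier of sterols between membranes, had 10.7 and 10.4 CPM in knockout and 12.3 and 12.5 CPM in control cells of experiment 1, and then 13.2 and 13.5 against 11.7 and 18.5 CPM. Its 2 control libraries of experiment 2 lay on either side of the knockout libraries. The log2 fold change was −0.21 (SE 0.18, adjusted p = 1.00 in edgeR's test). An antisense gene overlaps exons of STARD4, and whether the counting used strand is not given in the sources used here.

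TM7SF2, a sterol reductase of the later pathway, had 26.4 and 21.3 CPM in knockout and 29.6 and 27.5 CPM in control libraries of experiment 1, and 21.1 and 23.8 against 20.6 and 23.1 CPM in experiment 2. The genotypes were apart in experiment 1, again with 2 libraries against 2, and overlapped in experiment 2. The log2 fold change of TM7SF2 over both was −0.12 (SE 0.14). Its exons overlap those of VPS51 on the same strand, so reads of both cannot be fully separated. HMGCS1, the synthase that makes HMG-CoA, had 95.3 and 92.1 against 96.0 and 102 CPM in experiment 1 and 99.8 and 115 against 75.9 and 101 CPM in experiment 2. The guide 1 control of experiment 2 was its lowest library, and the log2 fold change was 0.10 (SE 0.12).

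ABCG1, which exports cholesterol to lipoprotein particles, changed most of the 28 genes between experiments and is the gene with both knockout libraries below both controls in each experiment. In experiment 1 it had 2.08 and 1.95 CPM in the knockout libraries and 2.72 and 2.96 CPM in the controls. In experiment 2 it had 23.0 and 20.4 CPM in the knockout libraries and 33.4 and 24.5 CPM in the controls. Relative to the controls of the same experiment, the knockout libraries averaged 71.0% in experiment 1 and 74.8% in experiment 2. The log2 fold changes were −0.50 (SE 0.21) and −0.42 (SE 0.16), with 0 of 28 genes past the adjusted threshold in either experiment, beside 0% of all genes in each.

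With the block the knockout effect on ABCG1 was −0.45 (SE 0.12, 95% interval −0.71 to −0.19), with an unadjusted p of 0.00266 and an adjusted p of 0.614 in edgeR's quasi-likelihood test. Being below in both experiments is not rare among all genes. Of the 28 genes it held for 1, or 3.57%, against 3.26% of all tested genes. The opposite order held for 0 of the 28 and for 2.46% of all genes. The difference between the 2 knockout effects on ABCG1 was 0.08 (SE 0.26).

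Between experiments the sterol genes did differ, and in both directions. In edgeR's quasi-likelihood test 12 of the 28 passed the adjusted threshold, or 42.9%, against 58.2% of all tested genes. Of these 7 were higher in experiment 2, beside 29.6% of all genes, and 5 were lower, beside 28.6% of all genes. A change past the threshold of at least 2-fold was found for 1 of the 28, ABCG1, or 3.57%, against 14.2% of all genes. The libraries of the experiments did not overlap for 12 of the 28, 7 higher and 5 lower, while 56.0% of all genes did not overlap. The median of the 28, at 0.02, was near that of all genes, at 0.003.

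**Figure D2:**
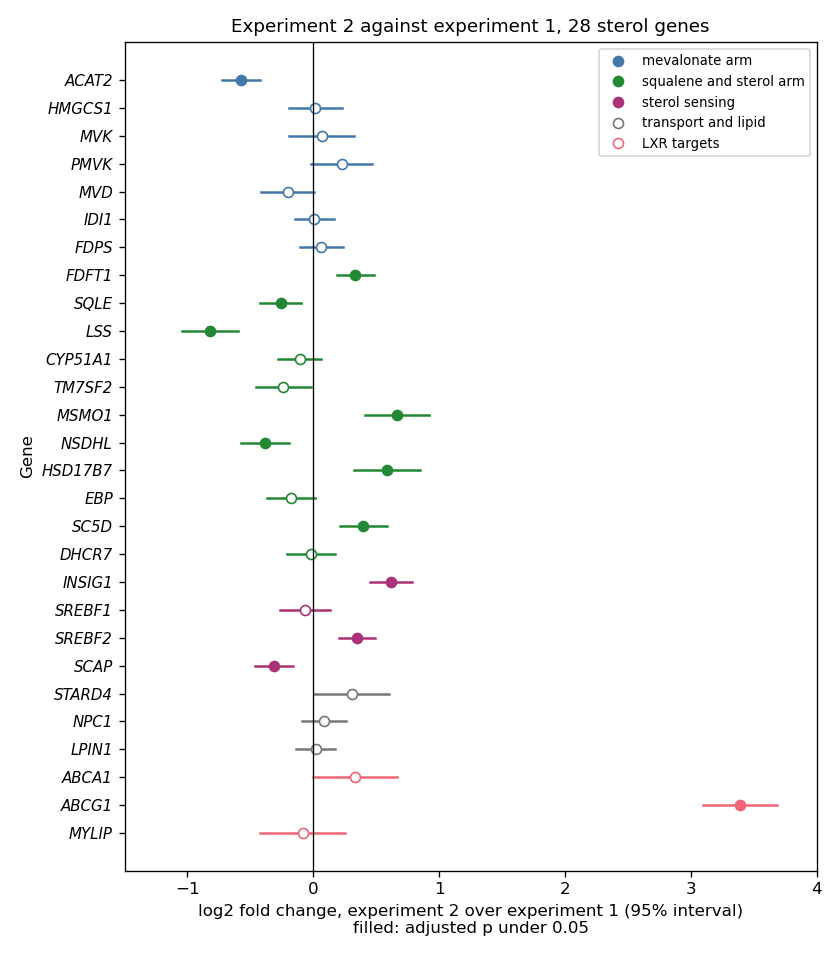
Experiment 2 over experiment 1 log2 fold changes of the 28 genes (points) with 95% intervals (lines), averaged over genotypes and coloured by role, with filled points for an adjusted p under 0.05. ABCG1 stands at 3.39, while the 27 others lie between LSS at −0.82 and MSMO1 at 0.66 with changes in both directions within the squalene and sterol arm.

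The mevalonate arm, which also feeds the synthesis of other isoprenoids, had 1 of its 7 genes past the threshold, beside 58.2% of all genes. This was ACAT2, which joins acetyl-CoA units into acetoacetyl-CoA. ACAT2 had 70.4, 68.8, 71.3 and 74.4 CPM in experiment 1 (both knockout libraries, then both controls) and 52.3, 53.0, 44.8 and 42.0 CPM in experiment 2. All libraries of experiment 2 lay below all of experiment 1, and ACAT2 fell by 0.57 on the log2 scale (SE 0.07, edgeR adjusted p = 5.14e-05). Its exons overlap those of SOD2 and TCP1 on the opposite strand. The log2 fold changes of HMGCS1, MVK, PMVK, MVD, IDI1 and FDPS lay between −0.20 for MVD and 0.22 for PMVK.

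The squalene and sterol arm had 7 of its 11 genes past the threshold, beside 58.2% of all tested genes. Of the 7, 4 were higher and 3 lower in experiment 2. LSS, which closes the rings to make lanosterol, had 449, 385, 461 and 466 CPM in experiment 1 and 224, 310, 244 and 219 CPM in experiment 2. The experiments did not overlap, and the guide 2 knockout library was the lowest of experiment 1 and the highest of experiment 2. LSS fell by 0.82 (SE 0.10, edgeR adjusted p = 5.96e-05), the largest fall of the 28 genes. Exons of LSS overlap those of other genes on the opposite strand.

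NSDHL, which takes part in removing the C4 methyl groups of lanosterol derivatives, had 40.5, 37.6, 39.8 and 39.5 CPM in experiment 1 and 31.8, 31.1, 31.8 and 25.8 CPM in experiment 2. It fell by 0.39 (SE 0.09, edgeR adjusted p = 0.00314), with no overlap. MSMO1 and HSD17B7 act at the same demethylation as NSDHL and moved the other way. MSMO1, the C4 methyl oxidase, had 18.1, 15.2, 14.5 and 16.1 CPM in experiment 1 and 24.8, 27.2, 21.1 and 28.2 CPM in experiment 2. All 4 libraries of experiment 2 were above those of experiment 1, and MSMO1 rose by 0.66 (SE 0.11, edgeR adjusted p = 5.46e-04).

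HSD17B7, the ketone reductase of that step, had 4.86, 4.62, 4.08 and 4.67 CPM in experiment 1 and 6.60, 6.42, 6.97 and 7.34 CPM in experiment 2. It rose by 0.58 (SE 0.12, edgeR adjusted p = 0.00155), and 2 pseudogene copies in the annotation can share its reads. SC5D, the desaturase near the end of the pathway, had 20.8, 20.1, 21.0 and 20.8 CPM in experiment 1 and 28.5, 26.7, 25.3 and 28.5 CPM in experiment 2, a rise of 0.40 (SE 0.08, edgeR adjusted p = 0.00203). Both genes had no overlap between experiments, so that neighbouring steps of 1 pathway were higher and lower in the same libraries. FDFT1, squalene synthase, rose by 0.33 and SQLE, squalene epoxidase, fell by 0.26, while CYP51A1, TM7SF2, EBP and DHCR7 did not pass the test, with log2 fold changes from −0.24 to −0.02.

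Among the sensing genes INSIG1, SREBF2 and SCAP changed and SREBF1 did not pass the test. INSIG1, the retention protein that is itself a target of SREBP, had 35.6, 32.4, 35.6 and 37.4 CPM in experiment 1 and 54.5, 53.9, 53.0 and 54.6 CPM in experiment 2. The 4 libraries of experiment 2 lay close together and above all of experiment 1, at means of 35.2 ± 2.11 and 54.0 ± 0.742 CPM (SD, n = 4 each). The log2 fold change was 0.62 (SE 0.07, edgeR adjusted p = 5.05e-05).

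SREBF2, which encodes SREBP2 and whose promoter carries the sterol regulatory element shown above, had 314, 311, 319 and 324 CPM in experiment 1 and 380, 434, 406 and 393 CPM in experiment 2. It rose by 0.35 (SE 0.07, edgeR adjusted p = 0.00104), without overlap between the experiments. An antisense gene overlaps exons of SREBF2. SREBF1, which encodes the SREBP1 forms linked to fatty acid synthesis, had 230, 222, 257 and 240 CPM in experiment 1 and 196, 257, 239 and 214 CPM in experiment 2. Its libraries overlapped, and the log2 fold change was −0.07 (SE 0.09, edgeR adjusted p = 0.551). SCAP, the escort of both, fell by 0.31 (SE 0.07, edgeR adjusted p = 0.00288). The transcript level of SREBF2 does not measure cleaved SREBP2 protein.

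**Figure D3:**
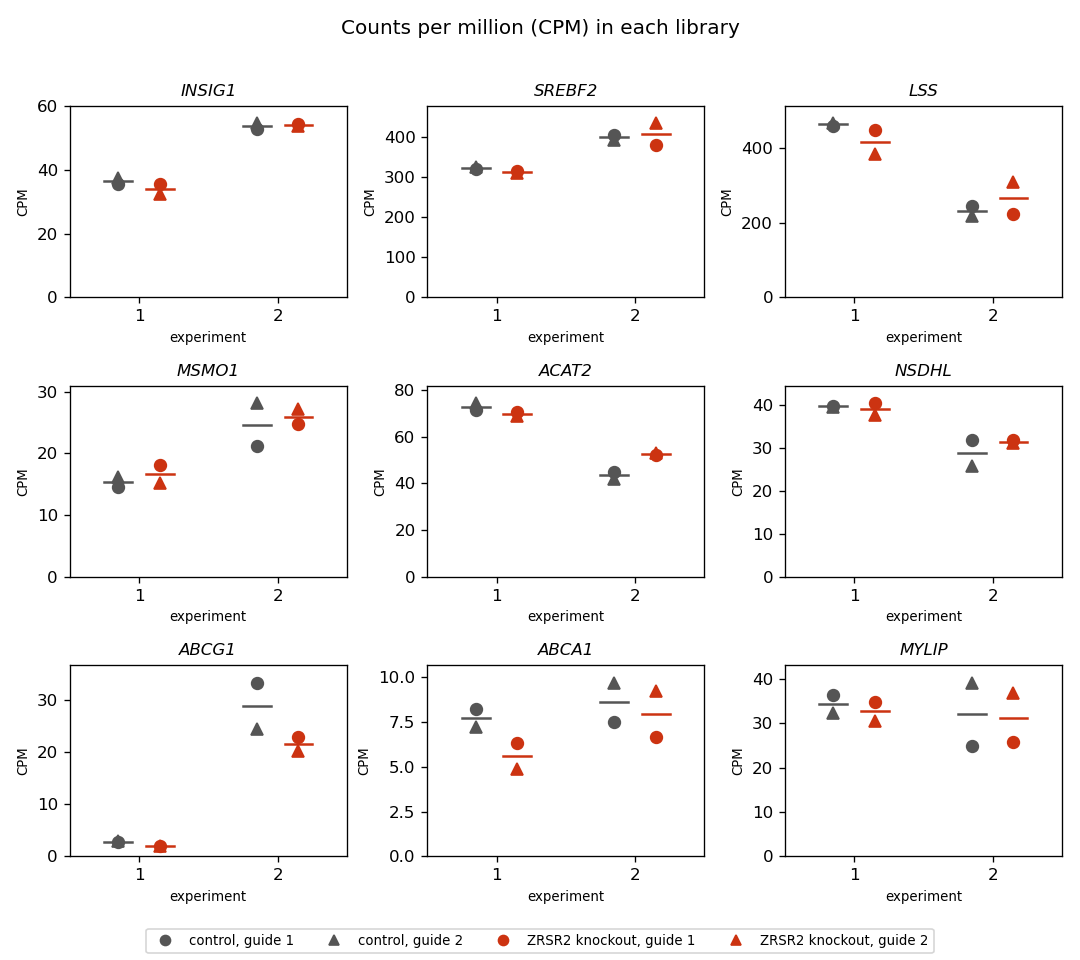
CPM of 9 genes in each library by experiment (x axis), with controls in grey, knockouts in red, guide 1 as circles, guide 2 as triangles and the mean of each pair as a line; each panel starts at 0. INSIG1, SREBF2, MSMO1 and ABCG1 are higher and LSS, ACAT2 and NSDHL lower in experiment 2, while ABCA1 and MYLIP overlap between the experiments.

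Among the LXR targets, ABCG1 rose between experiments and ABCA1 and MYLIP did not pass the test. ABCG1 averaged 2.43 ± 0.489 CPM (SD, n = 4) in experiment 1 and 25.3 ± 5.67 CPM (SD, n = 4) in experiment 2, a ratio of 10.4. The rise was 10.2-fold in the controls and 10.8-fold in the knockout libraries. The log2 fold change was 3.39 (SE 0.13, edgeR adjusted p = 1.3e-07), and every library of experiment 2 was above every library of experiment 1. In RNA from whole cultures, more cells with the transcript and more transcript per cell cannot be told apart.

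ABCA1, the other export gene, was at 0.33 on the log2 scale (SE 0.15, edgeR adjusted p = 0.0808). From the values given above, its libraries overlapped between experiments. MYLIP had 34.7, 30.5, 36.2 and 32.4 CPM in experiment 1 and 25.7, 36.8, 24.8 and 39.1 CPM in experiment 2. In experiment 2 both guide 1 libraries of MYLIP were low and both guide 2 libraries were high, and the log2 fold change between experiments was −0.09 (SE 0.15, edgeR adjusted p = 0.652). Of the LXR targets, then, 1 of 3 passed the test and of the SREBP2 targets 9 of 20 did, 5 higher and 4 lower, with a median of 0.01 for the 20. These shares of 33.3% and 45.0% stand beside 58.2% of all tested genes.

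The 3 transport and lipid genes did not pass the test between experiments. STARD4 was at 0.31 on the log2 scale (SE 0.14, edgeR adjusted p = 0.0746). NPC1, which releases cholesterol from lysosomes, was at 0.09 and LPIN1, a phosphatidate phosphatase, at 0.02.

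The wider pathways were read from 3 lists. In sterol handling and SREBP processing 9 of 14 genes changed between experiments, 6 higher and 3 lower, or 64.3% against 58.2% of all tested genes. INSIG2, the second retention protein, had 12.2 to 14.3 CPM in experiment 1 and 29.8, 26.8, 22.2 and 53.7 CPM in experiment 2, so that it rose by 1.28 (SE 0.22, edgeR adjusted p = 4.86e-04). The highest value was the guide 2 control, and the lowest of experiment 2 was still above all of experiment 1. NPC2, the partner of NPC1, rose by 0.65. TMEM97, a sterol-regulated membrane protein, fell by 0.58, and MBTPS1, the site-1 protease that cleaves SREBP, fell by 0.33.

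In the fatty acid list 5 of 10 genes changed, 4 higher and 1 lower, which is 50.0% beside the same 58.2%. SCD, the stearoyl-CoA desaturase, had 363, 377, 419 and 402 CPM in experiment 1 and 809, 779, 828 and 974 CPM in experiment 2, a rise of 1.12 (SE 0.07, edgeR adjusted p = 1.09e-06). FADS2, a desaturase of polyunsaturated fatty acids, rose by 0.40 and ELOVL6, an elongase, fell by 0.29. Of 9 LXR receptors and further LXR targets 4 changed, 3 higher and 1 lower, or 44.4% beside 58.2%. The receptor partner RXRB rose by 0.59, and the LXR gene NR1H2 fell by 0.31. These lists were counted, with no test of a list itself.

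Within each experiment the SREBP2 targets leaned in opposite directions by small amounts. In experiment 1, 17 of the 20 were lower in the knockout, with a median of −0.06, and in experiment 2, 18 of the 20 were higher, with a median of 0.08. Over all tested genes 49.4% were lower in the knockout in experiment 1 and 49.4% in experiment 2, with a median of 0.002 in each. None of the 28 genes passed the adjusted threshold for the difference between the 2 knockout effects, beside 0% of all genes. At an unadjusted p under 0.05, edgeR gave 1 gene in experiment 1 (ABCG1), 2 in experiment 2 (ACAT2 and ABCG1) and 1 for the difference (ACAT2). Of all 14898 genes 305, 645 and 248 did so in these comparisons. Genes of 1 library share its errors, so these counts are not 20 independent observations.

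These counts varied with single libraries. Against the mean of the 4 libraries of its experiment, the guide 2 knockout of experiment 1 had 18 of the 20 SREBP2 targets below, with a median of −0.08, while the guide 2 control had all 20 above, with a median of 0.07. In experiment 2 the guide 2 knockout had 15 of 20 above, with a median of 0.06, and the guide 2 control had 9 above, with a median of −0.07. Without the guide 2 knockout library the count in experiment 1 went from 17 to 12 of 20 lower, and the median from −0.06 to −0.01. Without the guide 2 control of experiment 1 it was 13 of 20 lower. In experiment 2 the count of 18 higher became 14 without either control library, 16 without the guide 1 knockout and 15 without the guide 2 knockout.

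**Figure D4:**
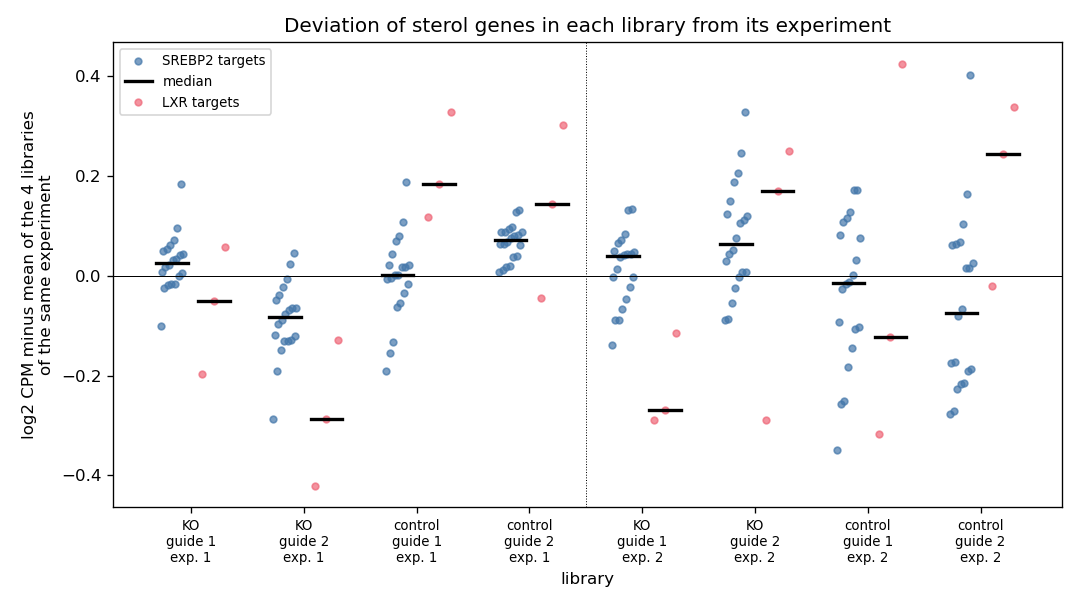
Each point is 1 gene in 1 library, as log2 CPM minus the mean of the 4 libraries of the same experiment (y axis), for the 20 SREBP2 targets in blue and the 3 LXR targets in red, with black lines for medians. The medians of the SREBP2 targets stay between −0.08 and 0.07 in all 8 libraries.

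ACAT2 was the SREBP2 target with an unadjusted p under 0.05 in edgeR's test in experiment 2 and for the difference. Its change in experiment 2 was larger than the list median, so it does not give the typical size. In experiment 2 its knockout libraries, at 52.3 and 53.0 CPM, were above its controls, at 44.8 and 42.0 CPM, which is 0.28 on the log2 scale (SE 0.10, unadjusted p = 0.0161 and adjusted p = 0.998 in edgeR's test). In experiment 1 the change was −0.07 (SE 0.10), and the difference of 0.34 (SE 0.14) had an unadjusted p of 0.0301 and an adjusted p of 1.00. The members therefore showed no difference between experiments in their response to the knockout that passed the test.

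The guides gave no member past the threshold. For ZRSR2 guide 1 against both control guides 0 of 28 passed, and for ZRSR2 guide 2 0 of 28, beside 0% of all genes for each. With the block guide 2 called 10 of all tested genes, or 0.0671%, and 0 of the 28. ZRSR2 was among the 10, at −0.93 (SE 0.12, edgeR adjusted p = 0.0118). Without the block, the 20 SREBP2 targets had 12 genes higher and 8 lower with guide 1, and 10 higher and 10 lower with guide 2, and both guides share their controls. Over all tested genes, without the block, 48.9% were lower with guide 1 and 53.3% with guide 2. The LXR targets had medians of −0.33 and −0.21, also without the block. In the blocked fit ABCG1 was at −0.37 (SE 0.15) with guide 1 and −0.52 (SE 0.15) with guide 2. Compared with each other, the 2 ZRSR2 guides differed in 0 of the 28 genes and the 2 control guides in 0 of the 28, again beside 0% of all genes. Between the control guides, with 2 libraries each, the 28 log2 fold changes ran from −0.40 to 0.37, beside −0.43 to 0.10 between knockout and control, with 4 libraries each.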

How the data were processed

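Messenger RNA was sequenced in 8 libraries of SET-2 cells. The authors deposited expected counts from RSEM for each symbol. Per the submitters' processing notes, cutadapt 1.11, RSEM 1.2.30 and hg19 were used, and the aligner, annotation and use of strand are not given in the sources used here. The expected counts were already whole numbers. Groups, guides and experiments come from the sample titles.

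Genes were filtered with filterByExpr on genotype (14898 kept), scaled by TMM and tested with edgeR's quasi-likelihood F test. P-values were adjusted by Benjamini-Hochberg over these genes, with 0.05 as the threshold. Genotype was fitted alone, with the experiment as a block as the alternative. Effects of and within experiments came from 1 fit with genotype by experiment, and guide effects from 1 fit with the 4 guides. Standard errors were derived from the F statistic. The genotype and experiment fits were run on simulated counts with known changes. The simulated genotype counts held no difference between experiments, so they cannot show how the fit with genotype alone performs here. All libraries differed by more than sampling noise (lowest chi-square per degree of freedom 2.99). Software was R 4.3.3, edgeR 4.0.16, limma 3.58.1, DESeq2 1.42.0, Python 3.11.15 and matplotlib 3.10.9.

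The experiment number was taken to pair knockout and control libraries, since the titles place both in the same experiment. The libraries' deviations from their genotype's mean, over genes, had correlations of 0.678 to 0.846 in 8 pairs of the same experiment. In 8 pairs of different experiments they were −0.816 to −0.709. Deviations cancel out within a genotype, so these negative values follow from the positive ones and add no separate support.

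Alternatives were DESeq2, its size factors within edgeR, other count filters, the block, and leaving out each library. The 28 genes and the lists were chosen with earlier results of these data known, so lists are given as counts and medians. Values per library are given for ZRSR2, the 4 members of smallest unadjusted p by genotype, the 8 of largest change past the threshold between experiments, INSIG1, SREBF1, SREBF2 and the 3 LXR targets, and from each related list the 2 genes of largest change per direction are named. A few genes of these lists are not reported here. Exon overlaps come from GENCODE 29 on GRCh38, a different build from that of the counts, so no coordinates of overlaps are given. The promoter coordinates above are on GRCh38 as well. Opposite-strand overlaps were also found for HMGCS1, MVK, IDI1, FDPS, FDFT1, CYP51A1, SREBF1, NPC1 and LPIN1. CYP51A1 also had same-strand overlaps, and FDPS and CYP51A1 have pseudogene copies in the annotation.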

Additional observations from a re-analysis of the deposited data

Results flagged for a closer look

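Each of the 28 genes and ZRSR2 was examined for a library far from the 3 others of its genotype or of its experiment, by comparing the gap to the nearest library with the whole range of the group. Of 116 groups of 4 libraries 5 held such a library, and chance alone flags about 1 group in 20. Among the libraries of experiment 1, IDI1, the isomerase of the mevalonate arm, was at 54.4 CPM in the guide 2 control, with the others at 50.4 to 51.0 CPM. Among the knockout libraries EBP, the sterol isomerase, was at 61.0 CPM in guide 1 of experiment 1, with the others at 52.6 to 53.4 CPM.

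The other 3 fell on the guide 2 control of experiment 2. NSDHL was at 25.8 CPM there, with the others of that experiment at 31.1 to 31.8 CPM. LPIN1 was at 76.3 CPM, with the others of that experiment at 67.6 to 69.1 CPM. STARD4 was at 18.5 CPM, with the other controls at 11.7 to 12.5 CPM.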

How the results depend on the processing

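The number of the 28 genes past the threshold stayed at 0 for genotype, for genotype within each experiment, for the difference between experiments and for the 4 guide comparisons, in every alternative run, the replicate block included, which changed no call of a member. Without the block ABCG1 had an unadjusted p of 0.693 for genotype, and with it 0.00266. Between experiments the count was 12, with 14 without a count filter, 12 in the other settings that kept all libraries, and 11 to 16 when 1 library was left out. Of the 12 genes, 11 passed in all 13 alternatives. SQLE was lost without knockout replicate 1 or without control replicate 2. A further 7 genes passed in at least 1 alternative. Changes between experiments that were near 0 changed sign when single libraries were left out: HMGCS1 ranged from −0.10 to 0.11, MVK from −0.0534 to 0.161, IDI1 from −0.0191 to 0.0365, FDPS from −0.0122 to 0.131, DHCR7 from −0.106 to 0.0532, SREBF1 from −0.168 to 0.0299, LPIN1 from −0.0302 to 0.0637 and MYLIP from −0.269 to 0.0658. The difference between the knockout effects on ABCG1 ranged from −0.11 to 0.32. For these, the cause was not tested. The ZRSR2 difference of −14.7 CPM was past the threshold over all arrangements and not within experiments, where 36 arrangements cannot reach it, and it ranged from −16.2 to −12.6 CPM with 1 library left out. ZRSR2 passed the adjusted threshold with DESeq2 and the block (adjusted p = 5.38e-04). The median of the LXR targets by genotype ranged from −0.46 to −0.08 and that of the SREBP2 targets from −0.02 to 0.04. Depth did not limit detection, since the lowest count was 74; the number of libraries limits precision.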
